A study of Mus musculus with 12 samples.

Results

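The 7 genes described here encode the transcription factors that drive epithelial-mesenchymal transition (EMT): Snai1 and Snai2 (Snail and Slug), Zeb1 and Zeb2, Twist1 and Twist2, and Prrx1. Members were taken by gene symbol, and all 7 were found among the 23282 gene rows of the count files. They were chosen with earlier results of these data known, so their share of calls is not that of a set picked blind. RNA came from C22 cells, an immortalised club cell line cloned from H-2Kb-tsA58 transgenic mice, so every library derives from 1 clone. Negative control cells (NC) and cells with siPDCD5 (siPdcd5) were each left untreated or were given TGF-β1 at 20 ng/ml over 24 h, and the treated groups are written NC + TGF-β1 and siPdcd5 + TGF-β1. By the shared protocol, cells were differentiated without gamma-interferon and starved of serum, and each group held 3 libraries. Nothing in the labels says whether these came from separate cultures, so the p-values measure the spread between libraries, which may be technical. The questions were whether TGF-β1 moved these regulators in C22 cells, and whether loss of Pdcd5 changed their level or their response.

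EMT is the programme by which an epithelial cell loses its junctions and gains motility and matrix production. Snail and Slug are zinc-finger repressors that bind the E2-box, as do the zinc-finger and homeodomain proteins Zeb1 and Zeb2, and all of them silence the E-cadherin gene Cdh1. Twist1 and Twist2 are basic helix-loop-helix proteins that pair with E proteins, whereas Prrx1 is a homeobox factor of mesenchyme. TGF-β acts through Smad proteins and is a classic inducer of the programme, in lung epithelium among other tissues.

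Gene positions are those of GENCODE M21 on GRCm38, the build of mm10, to which the deposited counts refer. Promoters of 5 of the 7 genes were taken from a RefSeq table (GRCm38.p6), which holds the 250 bases before and the 50 bases after a transcription start. Searches for 3 motifs were made on both strands: the E2-box (CAGGTG or CACCTG), the SMAD box (CAGAC or GTCTG) and the AP-1 site (TGACTCA or TGAGTCA). The bases before the start are given for Snai1, the member with the largest rise after TGF-β1, and for Prrx1 and Twist1, which were lower after it. Capitals mark the motif letters. The sequences lie at chr2:167537945-167538194 on the plus strand for Snai1, chr1:163313651-163313900 on the minus strand for Prrx1, and chr12:33957421-33957670 on the plus strand for Twist1.
Snai1: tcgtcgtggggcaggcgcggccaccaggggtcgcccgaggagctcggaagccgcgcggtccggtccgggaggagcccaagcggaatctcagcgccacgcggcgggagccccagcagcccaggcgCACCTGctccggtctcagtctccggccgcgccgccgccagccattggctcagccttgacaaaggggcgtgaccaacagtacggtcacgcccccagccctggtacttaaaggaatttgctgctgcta
Prrx1: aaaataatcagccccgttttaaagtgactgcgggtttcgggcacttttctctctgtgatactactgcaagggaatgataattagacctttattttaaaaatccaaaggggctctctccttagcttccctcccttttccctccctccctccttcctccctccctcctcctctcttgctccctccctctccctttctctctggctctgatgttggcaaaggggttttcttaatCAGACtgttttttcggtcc
Twist1: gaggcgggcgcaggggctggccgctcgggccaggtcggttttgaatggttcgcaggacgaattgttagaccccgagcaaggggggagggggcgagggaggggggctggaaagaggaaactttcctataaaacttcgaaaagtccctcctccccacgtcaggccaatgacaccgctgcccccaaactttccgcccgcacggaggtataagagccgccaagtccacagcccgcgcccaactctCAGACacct
Snai1, itself a gene of an E2-box repressor, held 1 E2-box that began at base -126 from the start, a motif found in 20.2% of all 32851 promoters of this length. Prrx1 held 2 SMAD boxes, beginning at bases -19 and 39, and Twist1 held 1 that began at base -9. A SMAD box occurred in 49.6% of all promoters. Neither Twist2 nor 3 of the 4 Zeb2 starts held any of the motifs, and the remaining Zeb2 start held 2 AP-1 sites, a motif seen in 5.2% of promoters.

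Libraries held 12809857 to 17714828 counted reads. Counts of the 7 genes ran from 75 reads (Twist1) to 1806 reads (Zeb1) in a library, and all 7 passed the filter on low counts. Their levels are given as CPM, read counts scaled to a common library size with the edgeR TMM factor of each library. In such bulk RNA, fewer cells of a type and less RNA per cell cannot be told apart. Pdcd5, the targeted gene, averaged 68.1 ± 4.68 CPM in NC and 67.8 ± 1.69 in NC + TGF-β1, against 21.1 ± 1.07 in siPdcd5 and 24.1 ± 2.26 in siPdcd5 + TGF-β1 (SD, n = 3). The knockdown libraries did not overlap with the controls in either state. Most defining markers of the labelled cell type were absent or nearly so: of 6 club cell markers, Scgb1a1, Scgb3a2, Cyp2f2 and Nkx2-1 had at most 1 read in any library and Scgb3a1 at most 5, and Foxa2 alone was well expressed (171.6 ± 11.2 CPM in NC). Epcam had at most 1 read in any library, while the epithelial keratins Krt8 and Krt18 and the fibroblast proteoglycan gene Dcn were all expressed. NC + TGF-β1 replicate 2 correlated least with the other libraries of its group, at a mean Pearson r of 0.976 over log2 CPM, against 0.981 to 0.990 for the other 11.

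TGF-β1 moved the members of the set in opposite directions in NC cells. Snai1 rose 3.71-fold and Zeb1 1.78-fold, whereas Snai2 fell to 0.694 and Prrx1 to 0.531 of the NC level. Thus 4 of the 7 passed the test (edgeR quasi-likelihood, Benjamini-Hochberg adjusted p under 0.05), 2 higher and 2 lower, against 15.3% of the 12425 genes tested, 8.57% higher and 6.77% lower. The NC and NC + TGF-β1 libraries did not overlap for 5 members, as for 29.6% of all genes. The median log2 fold change of the 7 was -0.26, beside 0.005 over all genes.

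**Figure D1:**
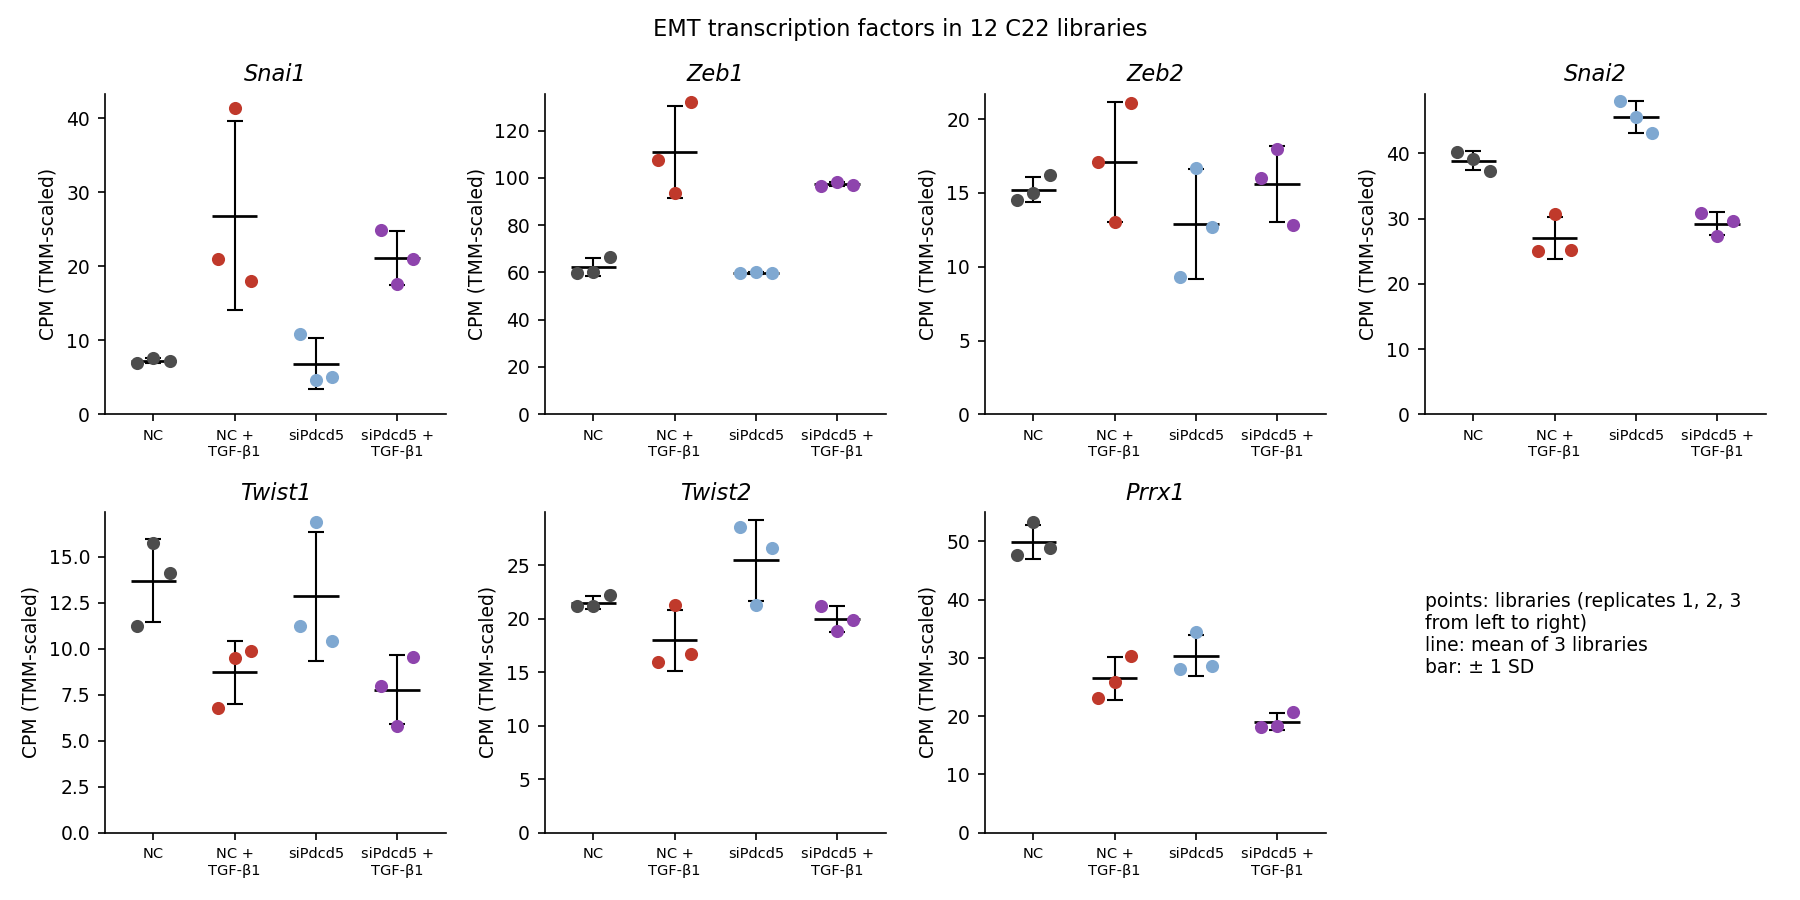
Level of each EMT transcription factor in the 12 libraries, in TMM-scaled CPM on a linear axis that starts at 0; points are libraries, the horizontal line is the mean of 3 and the bar is ± 1 SD. Within each background Snai1 and Zeb1 sit higher in the TGF-β1 group, and Snai2, Twist1 and Prrx1 sit lower. NC and siPdcd5 libraries do not overlap for Prrx1, which is lower in siPdcd5, or for Snai2, which is higher there.

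Snai1 (GRCm38 chr2:167538195-167542814, plus strand) encodes Snail, a zinc-finger repressor of Cdh1, and its level was 6.92, 7.64 and 7.14 CPM in NC replicates 1, 2 and 3, and 21.0, 41.4 and 18.1 CPM in NC + TGF-β1. Every treated library lay above every untreated one, and replicate 2 was the highest of the treated libraries by a wide margin. In siPdcd5 cells its level was 10.9, 4.58 and 5.09 CPM without TGF-β1 and 24.8, 17.6 and 20.9 CPM with it, again with no overlap. The log2 fold change after TGF-β1 was 1.89 ± 0.331 (SE) in NC cells (edgeR adjusted p = 0.00102) and 1.65 ± 0.330 in siPdcd5 cells (adjusted p = 0.00292). Without NC + TGF-β1 replicate 2 the log2 change in NC cells was 1.43 and still passed the test.

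Zeb1, on chromosome 18, encodes a repressor of Cdh1 and of epithelial splicing and polarity genes, and measured 59.9, 60.4 and 66.6 CPM in NC and 107.4, 93.7 and 132.0 CPM in NC + TGF-β1. Its siPdcd5 libraries were closely grouped, at 59.6, 60.2 and 59.6 CPM untreated and 96.7, 98.4 and 97.1 CPM after TGF-β1. All treated libraries lay above all untreated ones in each background. The rise was 0.83 ± 0.110 (log2, SE) in NC cells (adjusted p = 9.15e-05) and 0.70 ± 0.110 in siPdcd5 cells (adjusted p = 4.17e-04).

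Its homologue Zeb2 (chr2:44983632-45117395, minus strand) measured 14.5, 15.0 and 16.2 CPM in NC, 17.1, 13.0 and 21.1 in NC + TGF-β1, 9.30, 16.7 and 12.7 in siPdcd5, and 16.0, 18.0 and 12.8 in siPdcd5 + TGF-β1. The 4 groups overlapped throughout. No call was made for Zeb2 in NC cells (log2 change 0.17 ± 0.211, adjusted p = 0.683) or in siPdcd5 cells (0.27 ± 0.211, adjusted p = 0.444). The 95% interval in NC cells ran from -0.287 to 0.619.

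Snai2 (chr16:14705852-14709385, plus strand) encodes Slug, the homologue of Snail with the same binding site, and it moved the other way. Its level was 40.2, 39.1 and 37.3 CPM in NC and 25.0, 30.7 and 25.2 CPM in NC + TGF-β1, and 48.0, 45.5 and 43.1 CPM in siPdcd5 against 30.9, 27.3 and 29.6 CPM in siPdcd5 + TGF-β1. Treated libraries were all below untreated ones in both backgrounds. The log2 change was -0.53 ± 0.106 in NC cells (adjusted p = 0.00299) and -0.64 ± 0.105 in siPdcd5 cells (adjusted p = 6.31e-04).

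Twist1 (chr12:33957671-33959829, plus strand), which controls cranial and limb mesenchyme in the embryo, measured 11.3, 15.7 and 14.1 CPM in NC and 6.77, 9.49 and 9.87 CPM in NC + TGF-β1. In siPdcd5 cells it measured 11.2, 16.9 and 10.4 CPM without and 7.99, 5.79 and 9.55 CPM with TGF-β1. The treated libraries lay below the untreated ones in both backgrounds, but by margins that were small beside the spread within groups. Its log2 change missed the threshold in NC cells (-0.65 ± 0.231, adjusted p = 0.0759) and passed it narrowly in siPdcd5 cells (-0.72 ± 0.230, adjusted p = 0.0458). The 2 responses differed by -0.07 (95% interval -0.771 to 0.625, adjusted p = 0.996), so no difference between the backgrounds was shown, and the siPdcd5 call was lost without siPdcd5 replicate 2 (log2 change -0.47, adjusted p = 0.209), siPdcd5 + TGF-β1 replicate 2 (-0.56, 0.180) or siPdcd5 + TGF-β1 replicate 1 (-0.74, 0.112).

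Twist2 (chr1:91801461-91848028, plus strand), a close relative of Twist1, measured 21.1, 21.1 and 22.2 CPM in NC, 15.9, 21.2 and 16.7 in NC + TGF-β1, 28.6, 21.2 and 26.6 in siPdcd5, and 21.2, 18.8 and 19.8 in siPdcd5 + TGF-β1. NC and NC + TGF-β1 overlapped through replicate 2 of the treated group, and the siPdcd5 groups were apart by less than the last digit given. Neither response passed the test alone, at -0.26 ± 0.139 in NC cells (adjusted p = 0.259) and -0.35 ± 0.136 in siPdcd5 cells (adjusted p = 0.102).

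Prrx1 was the member with the largest fall after TGF-β1 in NC cells and the only one called on Pdcd5 knockdown. The gene (chr1:163245119-163313710, minus strand) encodes a homeobox factor of limb and craniofacial mesenchyme that is also used as a fibroblast marker. Its level was 47.7, 53.3 and 48.9 CPM in NC and 23.2, 25.9 and 30.4 CPM in NC + TGF-β1. It stood at 28.1, 34.5 and 28.7 CPM in siPdcd5 and at 18.1, 18.4 and 20.8 CPM in siPdcd5 + TGF-β1. The NC libraries were the highest 3 and the siPdcd5 + TGF-β1 libraries the lowest 3, and the groups between them overlapped. The log2 change after TGF-β1 was -0.91 ± 0.123 in NC cells (adjusted p = 1.08e-04) and -0.67 ± 0.125 in siPdcd5 cells (adjusted p = 0.00168). The summed level of 6 fibroblast markers also went down with TGF-β1, from a range of 109.0 to 126.9 CPM in NC to 53.3 to 66.9 CPM in NC + TGF-β1. Within it Dcn went from 95.7 to 22.6 CPM, Pdgfrb went from 15.2 to 30.1 CPM and Lum and Tbx4 had no more than 1 read in any library. Their part in the Prrx1 result was not tested.

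In siPdcd5 cells 5 of the 7 members passed the test after TGF-β1, 2 higher and 3 lower, against 16.1% of all genes (8.50% higher, 7.61% lower). The untreated and treated libraries did not overlap for 6 members, as for 36.1% of all genes. The direction of the estimate matched that in NC cells for all 7 members, and these 2 comparisons share no library. Among all tested genes the direction matched for 73.0%, and among the 1906 genes called in NC cells for 98.2%. Averaged over both backgrounds, TGF-β1 gave 6 calls (27.2% of all genes, 14.2% higher and 13.0% lower). Beyond Snai1, Zeb1, Snai2 and Prrx1 these were Twist1 (-0.69 ± 0.163, adjusted p = 0.00575) and Twist2 (-0.30 ± 0.0971, adjusted p = 0.0315, a call lost on leaving out any 1 of 9 of the 12 libraries, with adjusted p from 0.0529 to 0.0790), while Zeb2 stayed at 0.22 (adjusted p = 0.318).

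**Figure D2:**
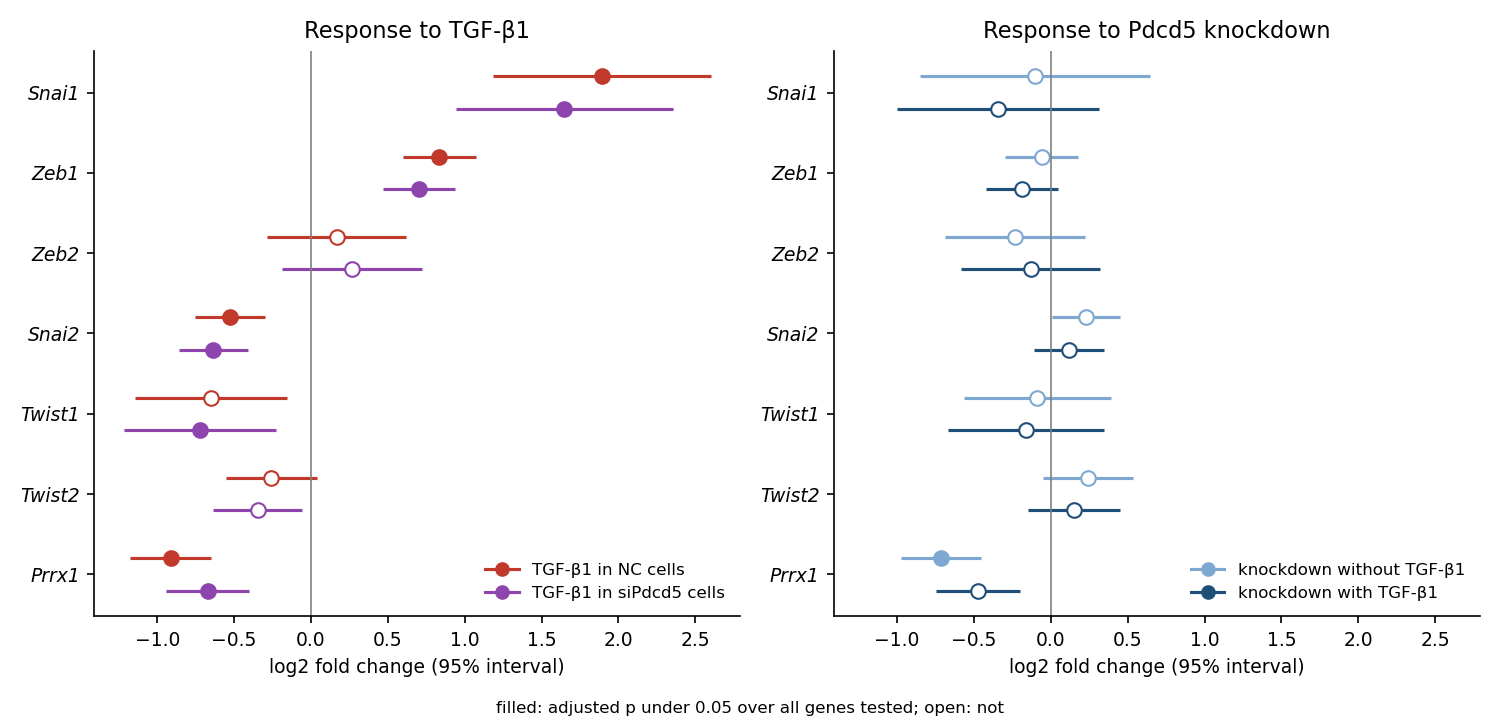
Log2 fold change of each member with its 95% interval, after TGF-β1 (left) and after Pdcd5 knockdown (right); filled points passed the test over all genes and open points did not. Snai1 and Zeb1 lie right of 0 and Snai2, Twist1, Twist2 and Prrx1 left of it in both backgrounds on the left, and on the right Prrx1 without TGF-β1 is the single filled point.

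The Snail homologues moved apart within a library. The ratio of Snai1 to Snai2 reads averaged 0.186 ± 0.0125 in NC and 0.968 ± 0.335 in NC + TGF-β1 (SD, n = 3), where the libraries gave 0.841, 1.348 and 0.716. In siPdcd5 cells it went from 0.148 ± 0.0681 to 0.718 ± 0.0808, and treated and untreated libraries did not overlap in either background. These are ratios of 3′ tags, and they describe a shift between the pair and not their molar amounts. The Zeb1 to Zeb2 ratio was 4.09 ± 0.0513 in NC and 6.58 ± 0.543 in NC + TGF-β1 with no overlap. It was 4.90 ± 1.41 in siPdcd5 and 6.35 ± 1.08 in siPdcd5 + TGF-β1, where the libraries overlapped. Twist1 to Twist2 ratios overlapped in both backgrounds (0.638 ± 0.106 and 0.487 ± 0.0893 in NC cells).

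**Figure D3:**
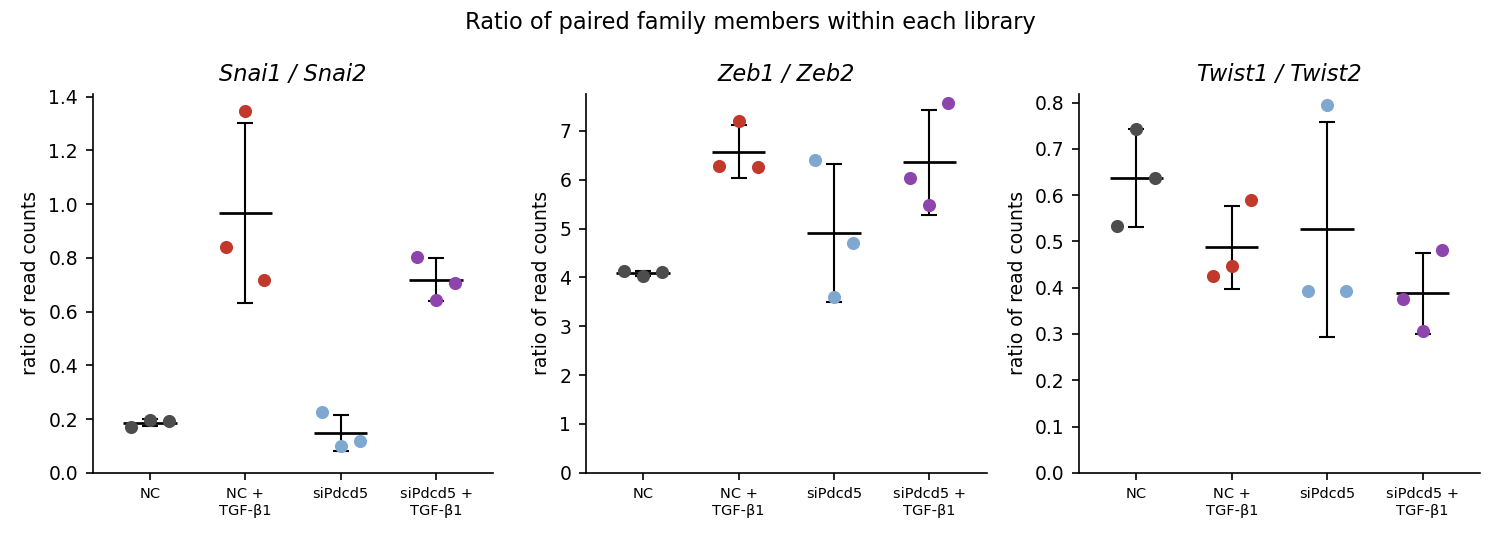
Ratio of read counts between homologues in each library (linear axes from 0; points are libraries, lines are means of 3 and bars ± 1 SD). The Snai1 to Snai2 ratio averages 0.186 in NC and 0.968 in NC + TGF-β1, and the Twist1 to Twist2 ratios of untreated and treated libraries overlap in both backgrounds.

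Pdcd5 knockdown gave few calls in the set. Without TGF-β1, Prrx1 was the only member called, at 0.610 of the NC level (log2 change -0.71 ± 0.121, 95% interval -0.975 to -0.454, edgeR adjusted p = 0.00413), with every siPdcd5 library below every NC library. In the same comparison the summed level of the 6 fibroblast markers was 157.0 to 184.3 CPM in siPdcd5 against 109.0 to 126.9 CPM in NC. Most of that sum was Dcn, which averaged 95.7 CPM in NC and 144.3 CPM in siPdcd5. Pdgfra averaged 5.90 and 5.41 CPM, Pdgfrb overlapped and was not called (15.2 and 19.7 CPM, adjusted p = 0.484), Thy1 had at most 12 reads in a library, and Lum and Tbx4 had 0 reads in both groups. Their part in the Prrx1 result was not tested here either. Of all genes 3.44% were called in this comparison, 0.901% higher and 2.54% lower. Snai2 libraries were also separated, all higher in siPdcd5, so that 2 of 7 members did not overlap, as for 23.1% of all genes, but its log2 change of 0.23 ± 0.104 did not pass (adjusted p = 0.306). The other 5 members overlapped, with log2 changes from -0.23 for Zeb2 (adjusted p = 0.674) to 0.24 for Twist2 (adjusted p = 0.432). Snai1 and Zeb1, the members that TGF-β1 raised, were at -0.10 (adjusted p = 0.928) and -0.06 (adjusted p = 0.859).

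In TGF-β1-treated cells knockdown gave 0 calls among the 7 members, against 1.55% of all genes (0.330% higher, 1.22% lower). Prrx1 was again lower in every siPdcd5 + TGF-β1 library than in any NC + TGF-β1 library (log2 change -0.47 ± 0.126), and it missed the threshold (unadjusted p = 0.00209, adjusted p = 0.0829). It was the only member with an unadjusted p under 0.05, as were 13.8% of all genes, and the only one called by DESeq2 (adjusted p = 0.0229). Libraries did not overlap for 18.9% of all genes here. Snai1 stood at -0.34 ± 0.305 (adjusted p = 0.685), and this sign rested on NC + TGF-β1 replicate 2, without which the value was 0.115. Zeb1 stood at -0.19 (adjusted p = 0.481). Averaged over both states, Prrx1 was lower by knockdown (log2 change -0.59 ± 0.0875, adjusted p = 8.03e-04) and was the only member called, among 7.70% of all genes (2.58% higher, 5.13% lower). These knockdown contrasts and the TGF-β1 contrasts use the same 4 groups, so the Prrx1 values are not independent of one another.

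The effect of Pdcd5 status on the response itself was tested as the difference between the responses in siPdcd5 and NC cells. No member passed, and neither did any of the 12425 genes by edgeR, of which 638 (5.13%) had an unadjusted p under 0.05 and none of the 7 did. DESeq2 called 15 genes, none of them a member. The intervals show how large a difference these libraries leave possible: -1.24 to 0.752 for Snai1, -0.462 to 0.202 for Zeb1, -0.429 to 0.208 for Snai2 and -0.135 to 0.615 for Prrx1 (log2). For Zeb2 the interval ran from -0.540 to 0.741, and for Twist2 from -0.507 to 0.326.

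Placed in order of their group means, Snai1 and Zeb1 fell from NC + TGF-β1 through siPdcd5 + TGF-β1 and NC to siPdcd5, and only the step between treated and untreated groups was free of overlap. Snai2 ran from siPdcd5 through NC and siPdcd5 + TGF-β1 to NC + TGF-β1, with no overlap at the first 2 steps. Prrx1 ran from NC through siPdcd5 and NC + TGF-β1 to siPdcd5 + TGF-β1, with no overlap at the first and last steps. Twist1 overlapped within the untreated and within the treated groups, and neighbouring groups of Twist2 and Zeb2 overlapped at every step.

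The genes whose log2 CPM followed each member most closely over the 12 libraries were searched among 9127 tested genes whose mean log2 CPM reached 3. Such values describe libraries that share groups and treatments, and the highest of many are printed. Snai1 was followed by Clic4 (Pearson r = 0.986), Scx (0.978) and Emx2 (0.978). Scx encodes the tendon factor scleraxis, and it averaged 29.1 CPM in NC and 69.7 CPM in NC + TGF-β1. The nearest to Zeb1 were Nme7 (0.994), Gpc1 (0.987), a cell-surface heparan sulphate proteoglycan, and Iqgap1 (0.985), a scaffold of the actin cortex. Snai2 had Irs1 (0.985), the insulin receptor substrate, then Slc7a2 (0.979) and Cyb5a (0.975). Prrx1 had Fgf18 (0.983), Trf (0.978) and Ikzf2 (0.969). Fgf18, a growth factor of lung and skeletal mesenchyme, averaged 121.7 CPM in NC, 67.1 in siPdcd5, 51.0 in NC + TGF-β1 and 33.5 in siPdcd5 + TGF-β1, the same order as Prrx1. For Zeb2 the list was Irgq (0.979), Yme1l1 (0.967) and Ilk (0.944), and for Twist1 it was Galnt2 (0.955), Gramd4 (0.934) and Arvcf (0.927). Twist2 was followed most closely by Dpm1 (0.947).

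The epithelial genes that these factors are known to repress were in good part not detected above the filter. Of 31 such genes in the list, covering junctions, keratins and surface proteins, 14 passed the count filter. Among these, the junction genes F11r, Tjp1 and Jup averaged 689.8, 58.1 and 60.6 CPM in NC. They averaged 659.5, 56.0 and 80.7 CPM in NC + TGF-β1 and were not called (adjusted p = 0.894, 0.841 and 0.252). After TGF-β1 in NC cells their median log2 change was 0.05, beside 0.005 over all genes. Beside 8.57% of all genes called higher and 6.77% lower, 3 of the 14 were called there, all higher. They were Krt8 (189.2 to 486.5 CPM, log2 change 1.36, adjusted p = 8.61e-07), Krt18 (494.7 to 1024 CPM, 1.05, adjusted p = 6.24e-05) and the plakophilin gene Pkp2 (25.4 to 47.4 CPM, 0.90, adjusted p = 0.00460). Cdh1, the E-cadherin gene and the textbook target of Snail and Zeb, was low in all groups, at 3.17 ± 0.827 CPM in NC and 2.12 ± 0.248 CPM in NC + TGF-β1, and overlapped (log2 change -0.58, adjusted p = 0.167). In siPdcd5 cells, where 8.50% of all genes were called higher and 7.61% lower, 4 of the 14 were called, all higher. They were Krt8, Krt18, Pkp2 and Pkp3 (Pkp3 log2 change 2.19, adjusted p = 0.0255). Pkp3 averaged only 0.298 CPM without and 1.38 CPM with TGF-β1 there. Not all calls of the list were upward. Without NC + TGF-β1 replicate 2 the response in NC cells gave 3 higher and 1 lower. Calls over all genes then numbered 2554 of 12623 tested, 1429 of them higher. The response averaged over NC and siPdcd5 cells also gave 3 higher and 1 lower, beside 14.2% and 13.0% of all genes. The lower gene in the averaged response was the polarity gene Llgl2 (log2 change -0.70, adjusted p = 0.0161).

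Genes in the mesenchymal list moved mostly upward, and some were already highly expressed before TGF-β1. In untreated NC cells Sparc averaged 7770 CPM, S100a4 5965, Cald1 2969, Col1a1 2719 and Acta2 543.4. Others were low there, among them Tagln at 5.445 CPM, Cdh11 at 0.151 and Fap at 0.0742. Of 32 in the list 29 were tested, and 23 rose and 2 fell after TGF-β1 in NC cells (median log2 change 0.96, beside 0.005 over all genes). Over all genes 8.57% were called higher and 6.77% lower. The list was chosen with earlier results of these data known, and it holds Postn and Tnc, which the paper names from this RNA-seq. Postn, the matricellular protein periostin, rose from 3.58 to 86.5 CPM (log2 change 4.59, adjusted p = 1.50e-09), and Col1a2, Fstl1 and Lox rose by 2.78, 1.94 and 1.74 on the log2 scale. Fibronectin, Fn1, rose from 548.9 to 715.8 CPM (0.38, adjusted p = 0.0119). The intermediate filament gene Vim, used as a mesenchymal marker, fell from 2082 to 1360 CPM (-0.61, adjusted p = 0.00585), S100a4 was the other that fell (-0.36), and N-cadherin, Cdh2, gave -0.10 (adjusted p = 0.696). Without NC + TGF-β1 replicate 2 the list gave 23 higher and 1 lower, beside 2554 calls among 12623 genes tested. In siPdcd5 cells Vim fell too (-0.77, adjusted p = 0.00107), and S100a4 was not called (-0.11, adjusted p = 0.546).

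On knockdown, the mesenchymal list went mostly the other way. In siPdcd5 cells 11 of the 29 were lower and 1 higher than in NC, and in TGF-β1-treated cells 8 were lower and 0 higher (medians -0.26 and -0.29). Of all genes 2.54% were lower and 0.901% higher without TGF-β1, and 1.22% lower and 0.330% higher with it. Postn differed with TGF-β1 (86.5 and 51.4 CPM, log2 change -0.75, adjusted p = 0.0161) and was not called without it (-0.07, adjusted p = 0.921), and the test of the difference of its TGF-β1 responses gave -0.68 ± 0.252 (adjusted p = 0.949). Lox fell without TGF-β1 (-0.73, adjusted p = 0.00812), and Col1a2 rose there (1.74, adjusted p = 6.33e-04). Vim, Cdh2 and Fn1 passed in neither knockdown comparison. Without NC + TGF-β1 replicate 2 the treated comparison gave 9 lower and 1 higher, and calls over all genes went from 192 to 322.

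Most factors that hold the epithelial state were below the filter. Of 21 genes in this list, which includes splicing regulators, 5 passed the filter, and Grhl2, Ovol2, Esrp1 and Elf3 stood at 0.193 CPM or less in every library. Klf4 was well expressed and was not called (412.5 CPM in NC, 433.9 in NC + TGF-β1, adjusted p = 0.770). Foxa2, a forkhead factor of airway epithelium, fell from 171.6 to 50.3 CPM (log2 change -1.77, adjusted p = 8.02e-09) and Gata6, a lung endoderm factor, from 92.5 to 42.5 CPM (-1.12, adjusted p = 0.00340) after TGF-β1 in NC cells. Both fell in siPdcd5 cells too, with log2 changes of -1.51 and -1.57. On knockdown Klf5 was lower without TGF-β1 (-0.83, adjusted p = 0.00234) and with it (-0.93, adjusted p = 0.00191), and Foxa2 was higher with it (0.50, adjusted p = 0.00925).

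Of 28 other EMT-associated transcription factors 20 were tested, and 7 rose and 2 fell after TGF-β1 in NC cells. Over all genes 8.57% were called higher there and 6.77% lower. Runx1, better known from blood formation, went from 31.7 to 100.9 CPM (log2 change 1.67, adjusted p = 2.87e-06), and the forkhead gene Foxq1 from 38.3 to 72.4 CPM (0.92, adjusted p = 3.32e-06). Foxc1 fell from 25.8 to 11.01 CPM (-1.23, adjusted p = 9.15e-05) and Sox9, a factor of cartilage and lung progenitors, from 13.2 to 7.22 CPM (-0.87, adjusted p = 8.70e-04). Sox9 was the only one of the 20 called on knockdown without TGF-β1 (0.73 higher, adjusted p = 0.00970), and Hmga2 the only one with it (0.46 higher, adjusted p = 0.0240). Of all genes 3.44% were called on knockdown without TGF-β1 and 1.55% with it. Leaving out NC + TGF-β1 replicate 2, the TGF-β1 response in NC cells gave 7 higher and 4 lower. Calls over all genes then numbered 2554 of 12623 tested, 1429 of them higher, against 1906 of 12425 with every library.

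The E protein genes Tcf3, Tcf4 and Tcf12, which encode the partners of Twist proteins, were not called in any of the 4 pairwise comparisons. The Id genes encode helix-loop-helix proteins without a DNA-binding region that sequester E proteins, and 3 of the 4 were tested and called after TGF-β1. Of all genes 6.77% were called lower after TGF-β1 in NC cells. Id2 fell from 131.4 to 7.24 CPM (log2 change -4.18, adjusted p = 1.93e-09), Id3 from 248.2 to 31.2 CPM (-2.99) and Id1 from 119.6 to 26.8 CPM (-2.16). All 3 also fell in siPdcd5 cells, with log2 changes of -3.03, -2.77 and -1.75. Without TGF-β1, knockdown cells had less Id2 (-0.78, adjusted p = 0.00777) and Id1 (-0.49, adjusted p = 0.0259), and with TGF-β1 no Id gene was called.

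The TGF-β pathway list of receptors, SMADs and inhibitors had 22 of 25 genes tested, 8 higher and 3 lower after TGF-β1 in NC cells. Over all genes 8.57% were higher and 6.77% lower. Pmepa1, a feedback inhibitor, rose from 211.5 to 1398 CPM (log2 change 2.72, adjusted p = 3.64e-09) and Skil, a SMAD corepressor, from 32.7 to 86.4 CPM (1.40, adjusted p = 1.73e-05). Smad6, an inhibitor of BMP signalling, fell from 16.7 to 6.88 CPM (-1.28, adjusted p = 1.28e-05), and the ligand gene Tgfb3 from 55.1 to 28.1 CPM (-0.97, adjusted p = 5.63e-05), and Smad9 was the other that fell (-2.04). In siPdcd5 cells 6 rose and 3 fell, beside 8.50% and 7.61% of all genes. Knockdown lowered 2 of the 22 without TGF-β1, Smad6 (-0.67) and Smad7 (-0.46), and gave 0 edgeR calls with it. Of all genes 2.54% were lower on knockdown without TGF-β1, and 1.55% were called with it.

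**Figure D4:**
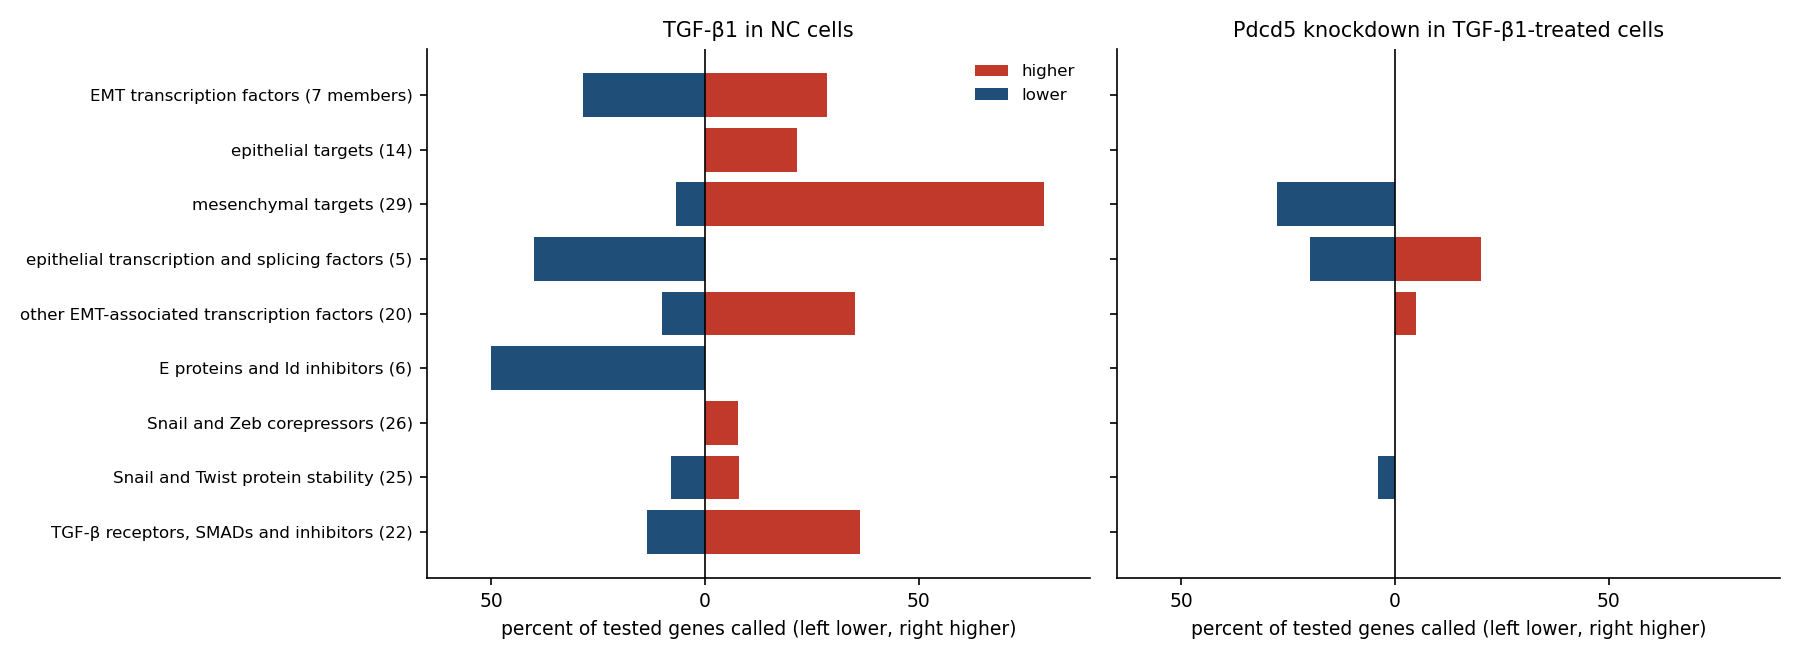
Percent of tested genes called lower (left of 0) or higher (right of 0) in each list, for the TGF-β1 response of NC cells (left panel) and for knockdown under TGF-β1 (right panel); numbers in brackets are genes tested. After TGF-β1 the 7 EMT transcription factors split evenly, 2 higher and 2 lower, the mesenchymal list has 23 of 29 higher, and on knockdown the same list has 8 of 29 lower and the 7 factors have 0 calls. Of all genes tested 8.57% are higher and 6.77% lower after TGF-β1, and 0.330% higher and 1.22% lower on knockdown. The lists share some genes, among them Lox and Loxl2.

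Genes for proteins that carry out repression by Snail and Zeb, or set the stability of Snail and Twist, were read beside the 15.3% of all genes called after TGF-β1 in NC cells. All 26 corepressor genes were tested, and 2 were higher after TGF-β1 in NC cells. These were Rcor2 (18.6 to 36.3 CPM, log2 change 0.97, adjusted p = 0.00118) and the histone demethylase gene Kdm1a (49.4 to 62.2 CPM, 0.33, adjusted p = 0.0148). Neither passed in siPdcd5 cells, where Ctbp2 (0.36) and Ajuba (0.53) were higher and Mta1 (-0.64) lower, beside 16.1% of all genes called. No difference of responses was called for these genes (edgeR adjusted p from 0.951 to 0.960). It was -0.49 for Rcor2, -0.18 for Kdm1a, 0.18 for Ctbp2, 0.32 for Ajuba and -0.39 for Mta1. Of 25 tested genes for enzymes that act on Snail or Twist protein stability, 2 rose and 2 fell in NC cells. Lox and Loxl2 rose (Loxl2 by 0.57, adjusted p = 0.00270) and the phosphatase genes Ctdspl and Ctdsp1 fell (-1.04 and -0.42). Both Lox and Loxl2 are also in the mesenchymal list and are counted among its risers. Without NC + TGF-β1 replicate 2 this list gave 4 higher and 5 lower, beside 2554 calls among 12623 genes tested.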

How the data were processed

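The authors aligned QuantSeq 3′ mRNA-seq reads with Bowtie2 to mm10 and counted unique and multiple alignments with Bedtools, and the deposited files hold these raw counts per gene symbol, 1 file per library. Whether counting used strand is not given in the sources used here. Members and gene lists were chosen with earlier results of these data known. The 44 rows that repeat a symbol were kept apart; none is a member. Counts were fitted with edgeR 4.0.16 in R 4.3.3 (filterByExpr, TMM, quasi-likelihood F test) in 1 model of the 4 groups of 3 libraries. No replicate block was used, since the labels name no pairing of the libraries. The p-values were adjusted over all 12425 genes tested. Intervals are 95%. Alternatives were upper-quartile scaling, quantile normalization with limma 3.58.1, DESeq2 1.42.0, no filter, a minimum of 10 counts, only the 6 libraries compared, a replicate block, and each library left out. Total counts were 12809857 to 17714828, and 3 counts (0.169 to 0.234 CPM) were taken as the floor. The fit was tested on simulated data with 200 genes changed by 1.5, 2 or 4-fold. The test of TGF-β1 in NC cells found 36%, 80% and 96.5% of them. The test of the difference of responses found 0%, 59.5% and 92.5%, so it could miss changes of 2-fold or less. In GENCODE M21 transcripts no 50-base stretch of the members' last 500 bases was shared with another gene. Named from each list were up to 4 genes with the largest absolute log2 fold change after TGF-β1 in NC cells among those called there whose mean log2 CPM reached 3, and Cdh1, Vim, Cdh2 and Fn1. Other list genes were named after their values were seen, some of them because a count of 5 or fewer needed its genes. The other genes most like Twist2 across libraries are not reported here.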

Additional observations from a re-analysis of the deposited data

How the results depend on the processing

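Under alternatives other than leaving out a library, 315 values kept their direction and their side of the threshold, 4 fell short of it, 3 passed it anew and 0 turned sign. The TGF-β1 calls of Snai1, Snai2, Zeb1 and Prrx1 held in all 13 alternatives in NC cells and in all 13 in siPdcd5 cells, and the Prrx1 knockdown call without TGF-β1 held in 13 of 13 (adjusted p from 4.21e-06 to 0.0311). With DESeq2 the count of members called on knockdown with TGF-β1 was 1, not 0. Twist1 in NC cells passed with no filter (adjusted p = 0.0454) and with DESeq2 (0.0444). In siPdcd5 cells Twist1 missed with quantile normalization (0.0678) and with the 6 libraries alone (0.0522), and Twist2 passed without siPdcd5 replicate 2 (0.0378).

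On leaving out 1 library at a time, some estimates that were never called turned sign, and the cause was not tested. After TGF-β1 in NC cells Zeb2 ran from -0.011 to 0.329. On knockdown without TGF-β1, Snai1 ran from -0.588 to 0.128 and Twist1 from -0.341 to 0.042. On knockdown with TGF-β1, Snai1 ran from -0.569 to 0.115, Zeb2 from -0.296 to 0.048 and Twist1 from -0.335 to 0.008. The difference of responses ran from -0.471 to 0.251 for Snai1, -0.239 to 0.008 for Zeb1, -0.068 to 0.337 for Zeb2, -0.246 to 0.180 for Twist1 and -0.207 to 0.049 for Twist2, and knockdown averaged over both states from -0.462 to 0.004 for Snai1.

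Same-numbered deviations from the group means correlated at -0.324 to 0.166 over the 4 pairwise comparisons. For TGF-β1 in NC cells they averaged 0.113, against -0.057 for libraries of unlike number. For knockdown with TGF-β1 they averaged -0.14, against 0.068. With 3 libraries in a group, these values cannot settle whether replicate numbers mark a pairing. With the replicate block, members called numbered 4 in NC cells, 4 in siPdcd5 cells, where Twist1 was lost (adjusted p = 0.0614), 1 and 0 on knockdown, and 5 for the averaged response, where Twist2 was lost (0.0557). The block also lowered TGF-β1 calls over all 12425 genes, from 1906 to 1687 in NC cells and from 2002 to 1731 in siPdcd5 cells. Over all genes, calls on knockdown with TGF-β1 numbered 192 and went to 44 with the 6 libraries alone, 107 with the replicate block, 458 with DESeq2 and 322 without NC + TGF-β1 replicate 2, and those without TGF-β1 went from 427 to 714 with DESeq2. At 75 to 306 reads a library, Twist1 was the least precise of the members in log2 terms after Snai1.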

Other observations

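Homologues of the members were looked at after their values were seen. Snai3, the third Snail-family gene, was near the limit of detection, at 0.229 ± 0.204 CPM in NC and 0.753 ± 0.399 CPM in NC + TGF-β1 (SD, n = 3), and was not called (edgeR adjusted p = 0.157). Prrx2, the homologue of Prrx1, averaged 97.8 ± 6.86 CPM in NC and 75.7 ± 20.5 CPM in NC + TGF-β1, and its libraries overlapped (log2 change -0.37, adjusted p = 0.220). On knockdown without TGF-β1 Prrx2 gave -0.21 (adjusted p = 0.668). Whether the changes of Prrx1 and Prrx2 differ was not tested.

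Markers of other cell types in the lung ranged from no reads to clear expression. Of 3 alveolar type II markers, Sftpa1 had 0 reads, Sftpc at most 2 and Lamp3 from 2 to 10 in any library. Of 3 immune markers, the T cell gene Cd3e had 0 reads and the leukocyte gene Ptprc at most 6, while Cd68 had 91 to 162 reads in a library (9.10 CPM in NC and 9.24 CPM in NC + TGF-β1). Of 3 endothelial markers, Cdh5 had at most 1 read, Pecam1 at most 4, and Kdr, the only one of them that passed the filter, 8 to 38 (group means of 1.23 to 1.84 CPM). Among fibroblast markers Dcn was the highest, at 95.7 CPM in NC and 144.3 CPM in siPdcd5.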
